A study of Rattus norvegicus with 102 samples.

Results

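The comparison described here asks whether gene expression differed between aged rats with and without a spatial memory deficit when the 3 dissected subfields of the hippocampus, CA1, CA3 and the dentate gyrus (DG), were averaged into 1 value per rat. The animals were male Fischer 344 rats, an inbred strain used in research on ageing. Aged rats were 17 to 22 months old and had been trained in a water maze with a hidden platform. They were classed as aged-impaired (AI) or aged-unimpaired (AU) by a discrimination index from a probe trial without the platform, and the lowest score among young rats of 5 to 6 months set the limit between the classes. Each rat gave 1 hippocampus, from which CA1, CA3 and DG were each sequenced on the Ion Proton as poly-A mRNA. The members were all 24 aged rats (12 AI and 12 AU) of the 34 rats in the series, with 72 of its 102 libraries. The other 10 rats were young and are given as levels only. The rats carry identifiers of 2 series, R9 (5 AI and 6 AU) and R1-R2 (7 AI and 6 AU), whose meaning the labels do not give, and the series was a covariate in the comparison. Per the methods the animals were tested in Arizona or in Florida and came from a different supplier at each site. The young and aged rats given there per site are as many as in the series (5 and 11 in R9, 5 and 13 in R1-R2), but no label ties a series to a site, so series, site and supplier cannot be told apart. The labels name no transgene, deletion or drug in any group, and AI and AU rats share strain and sex. The age range is given for all aged rats together and not for each class. The class rests on 1 probe trial per rat.

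CA1 and CA3 hold pyramidal neurons and DG holds granule cells. Together they form the main relay of the hippocampus, in which DG granule cells project to CA3 and CA3 neurons to CA1. Spatial memory in the water maze depends on this circuit, and in ageing rodents it varies widely between animals of the same age. Calcium influx and release, and the receptors and channels that set excitability, control synaptic plasticity in these cells. An average over the subfields keeps a difference that all 3 share and weakens one that a single subfield carries or that runs in opposite directions in different subfields.

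No gene passed the test. Of 16372 genes that averaged 5 or more normalized counts over the aged libraries, 0 (0.0%) had an adjusted p under 0.05 for AI against AU (limma with Benjamini-Hochberg adjustment), and the smallest adjusted p was 0.99998. At an unadjusted p under 0.05 there were 253 genes (1.55%), of which 140 (0.855%) were higher and 113 (0.69%) lower in AI. Evenly spread p-values would put a share of 0.05 of the genes under that limit, which is more than was seen. At an unadjusted p under 0.01 there were 27 genes (0.165%). Tests on whole reads summed over the 3 libraries of a rat gave 0 genes at the adjusted threshold as well, with 331 genes at an unadjusted p under 0.05 in edgeR and 390 in DESeq2. All genes named below for AI against AU are named for their rank or their list, and none of them passed.

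**Figure D1:**
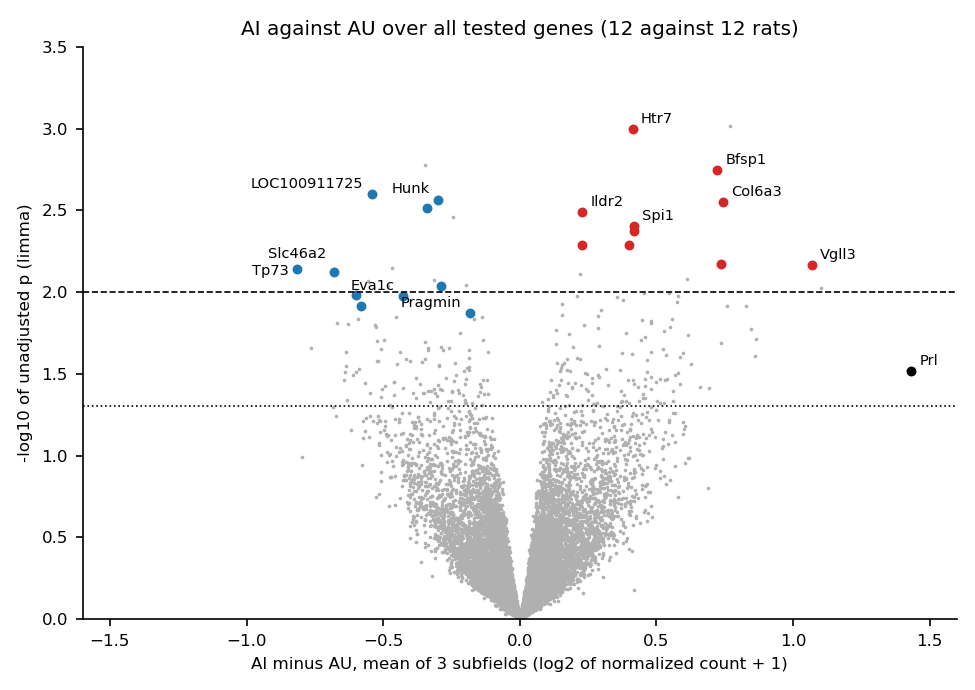
Each point is 1 of 16372 genes. The horizontal axis is the AI minus AU difference of the mean over CA1, CA3 and DG on the log2(normalized count + 1) scale, the vertical axis is -log10 of the unadjusted p of limma, and the dotted and dashed lines mark p of 0.05 and 0.01. The 10 named genes with the smallest p in each direction are coloured red (higher in AI) and blue (lower in AI), Prl is black, and 253 genes lie above the dotted line.

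The intervals give the size of difference that these data leave possible. The median gene differed by 0.06 in absolute value on the log2(normalized count + 1) scale, and the median margin, the distance from the difference to either end of its 95% interval, was 0.24. For 98.5% of genes the whole interval lay within a 2-fold difference in either direction, and for 81.4% it lay within 1.5-fold. Precision followed expression level. Among 2298 genes that averaged 1000 or more normalized counts the median margin was 0.16, and 99.7% of intervals lay within 1.5-fold. Among 2141 genes with a mean between 5 and 20 it was 0.53, and 25.4% of intervals did. Fits of a single subfield were less precise, with a median margin of 0.40 for CA1, 0.40 for CA3 and 0.30 for DG. In the averages 3 genes differed by more than 1 on the log2 scale. These were Vgll3 (1.07), Fat2, an atypical cadherin named after its value was seen, and the hormone gene Prl (1.43). Prl passed the filter of 5 normalized counts through its AI libraries alone. Fat2 averaged 5.95, close to that filter, and whether 1 class alone carried it past was not checked.

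Recovered reads of the 72 libraries ranged from 4478984 to 21467303. Summed over the 3 libraries of a rat they had a median of 29490537.5 in AI and 29382235.5 in AU (two-sided permutation test, p = 0.344). The first 2 principal components of the rat averages, taken after the series, held 28.7% and 14.9% of the variance and their scores overlapped between AI and AU (two-sided permutation tests, p = 0.935 and 0.677). The low end of the first component was held by 4 rats (2 AI and 2 AU, 2 of each series), whose libraries come first where the deposited table is ordered by rat. The labels do not say what sets these rats apart. Against the other 20 aged rats, 7054 genes (43.1%) passed an adjusted p of 0.05 in limma. The endothelial tight junction gene Cldn5 differed by -1.76 and the respiratory chain gene Ndufa5 by 1.41 (log2, these 4 rats minus the others). Both classes hold 2 of these rats, so their number is balanced between AI and AU, but the size of their shift was not equal. Their scores on the first component were -93.3 and -28.5 in AI and -48.0 and -21.5 in AU. With the 4 rats as a further covariate 0 genes passed for AI against AU and 417 had an unadjusted p under 0.05, and without them the counts were 0 and 393.

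**Figure D2:**
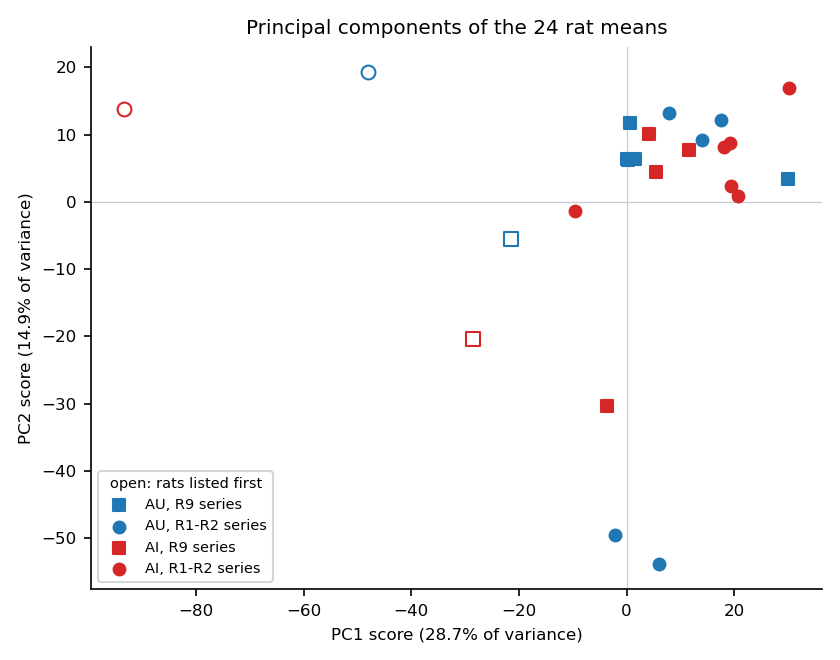
Scores of the 24 aged rats on the first 2 principal components of their averages over the 3 subfields (horizontal PC1, 28.7% of variance, vertical PC2, 14.9%). Red marks AI and blue AU, squares the R9 and circles the R1-R2 series, and the 4 open symbols, which lie at the low end of PC1, are the rats listed first. AI and AU are intermixed.

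The genes ranked highest among those with larger values in AI were a mixed group of receptor, structural and regulatory genes. Htr7 encodes the serotonin 5-HT7 receptor. Its level, given here and below as normalized counts transformed back from a rat's mean log2 value, was 82.3 to 165 with a median of 122 in AI and 74.5 to 125 with a median of 91.6 in AU. The groups overlapped, but 11 of 12 AI rats lay above the AU median and 5 above the highest AU rat. The difference was 0.41 ± 0.11 (log2, SE, n = 12 and 12, unadjusted limma p = 0.001), with 0.51 ± 0.20 in CA1, 0.30 ± 0.23 in CA3 and 0.43 ± 0.16 in DG. Young rats had a median of 124, nearer to AI than to AU.

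Spi1 encodes PU.1, the transcription factor that maintains microglia and other myeloid cells. It measured 51.2 to 83.3 (median 64.3) in AI and 26.3 to 68.4 (median 49.9) in AU, and all 12 AI rats were above the AU median. The difference was 0.42 ± 0.13 (p = 0.00395), and the subfields gave 0.51 in CA1, 0.33 in CA3 and 0.42 in DG. Young rats had a median of 47.2, on the AU side. The 10 microglial markers tested, among them Cx3cr1 (0.08 ± 0.08), had a median difference of 0.02 with 0 at an unadjusted p under 0.05, and their summed level ranged from 6498 to 9334 in AI and from 6078.6 to 9782.05 in AU. In tissue RNA, a change in the number of cells of a type and a change in RNA per cell cannot be told apart.

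Col6a3, a chain of type VI collagen, measured 32.4 to 165 (median 56.9) in AI and 19.1 to 54.8 (median 37.5) in AU. The difference was 0.74 ± 0.23 (p = 0.00283), and 6 AI rats exceeded every AU rat. Vgll3, a cofactor of TEAD transcription factors, measured 8.15 to 55.1 (median 15.4) in AI and 1.67 to 20.1 (median 6.07) in AU. All 12 AI rats were above the AU median, and the difference of 1.07 ± 0.36 (p = 0.0068) was much the same in CA1 (1.02), CA3 (1.25) and DG (0.93). AU rats spanned a wider log2 range than AI rats for this gene, with SDs of 1.14 and 0.75. Of the 10 mural and vascular fibroblast markers tested, 8 had larger values in AI and 0 had an unadjusted p under 0.05. Their median difference was 0.13 and their summed level ranged from 1190 to 3043 in AI and from 950 to 2058 in AU. Their part in the collagen difference was not tested.

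Plagl1, an imprinted zinc finger gene, had a median of 55.4 in AI and 28.1 in AU, with 7 AI rats above every AU rat. Its difference of 0.74 ± 0.25 (p = 0.00674) lay in 1 series: it was 1.39 ± 0.27 in R1-R2 and -0.04 ± 0.31 in R9 (test of the difference between series, unadjusted p = 0.00273, adjusted p = 0.999 in limma). Bfsp1, a filament protein known from the lens, differed by 0.72 ± 0.21 (p = 0.0018) from a median of 10.4 in AU to 15.96 in AI. The other 4 genes were Ildr2 (0.23), an immunoglobulin-like receptor, the polarity scaffolds Inadl (0.42) and Pard3b (0.40), and Tmem106c (0.23). In each of these 4, 11 of 12 AI rats were above the AU median. For Ildr2 the subfields were unequal, with 0.46 ± 0.14 in CA3 and -0.05 ± 0.12 in DG. A gene without a symbol that ranked among them was passed over.

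**Figure D3:**
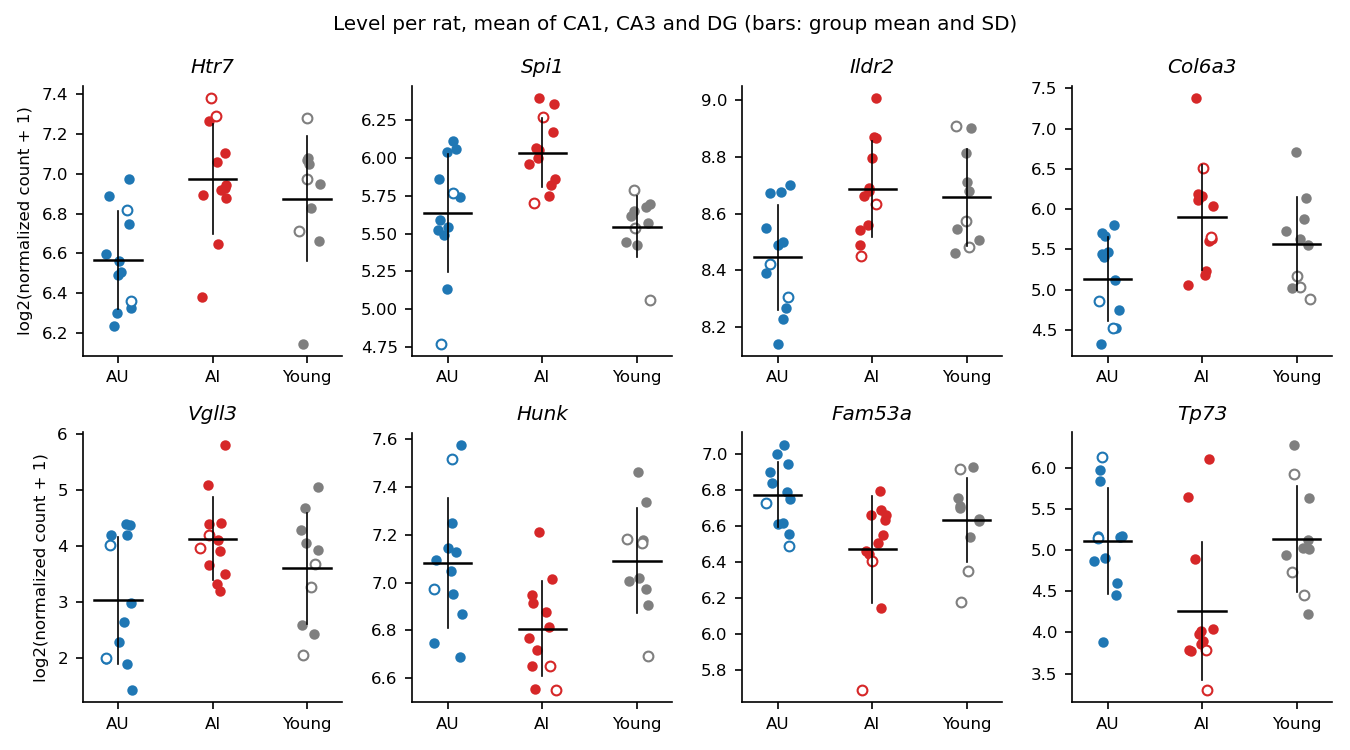
Levels of 8 of the 20 highest ranked genes in every rat. The vertical axis is the rat's mean of log2(normalized count + 1) over CA1, CA3 and DG, points are rats (12 AU, 12 AI and 10 young), open points are rats listed first, and black bars give the group mean and SD. In each panel the AI and AU ranges overlap although the means differ, for example 82.3 to 165 and 74.5 to 125 normalized counts for Htr7.

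Among genes with smaller values in AI, the kinase gene Hunk measured 92.7 to 147 (median 110) in AI and 102 to 190 (median 134) in AU. The difference was -0.30 ± 0.09 (p = 0.00272), and 11 of 12 AI rats lay below the AU median. Young rats resembled AU, with a median of 136. Tp73, a transcription factor of the p53 family, had the most negative difference of the 10 genes, -0.82 ± 0.28 (p = 0.00724). It ranged from 8.83 to 68.0 (median 14.4) in AI and from 13.8 to 69.2 (median 34.7) in AU, and 3 AI rats lay apart above the other 9. By subfield the difference was widest in CA1, at -1.58 ± 0.58, beside -0.32 ± 0.47 in CA3 and -0.54 ± 0.45 in DG. Without the 4 rats listed first it was -0.53 (p = 0.0599).

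Fam53a measured 50.5 to 110 (median 91.2) in AI and 88.9 to 132 (median 108) in AU, a difference of -0.29 ± 0.10 (p = 0.00917). The lowest AI value belonged to a rat listed first, and the difference without these rats was -0.24 (p = 0.0111). Rpl21, a ribosomal protein gene, differed by -0.34 ± 0.10 (p = 0.00304). This is 1 of 4 entries under that symbol, and reads of such near copies may have been divided among them. LOC100911725 differed by -0.54 ± 0.16, Slc46a2, a transporter known from the thymus, by -0.68 ± 0.24, Slc9b1, of the sodium and proton exchangers, by -0.60 ± 0.22, Eva1c by -0.43 ± 0.15, Fndc8 by -0.58 ± 0.22 and the pseudokinase gene Pragmin by -0.18 ± 0.07. Of these, Slc46a2, Slc9b1 and Fndc8 were scarce, with medians under 11 normalized counts in both classes. In this direction 7 genes without a symbol were passed over.

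Over these 20 genes, the effect had 1 sign in CA1, CA3 and DG for 18, where 21.2% of all tested genes had 1 sign. The genes were chosen on the average, which favours such agreement. The young median lay between the AI and AU medians for 15 of the 20, was nearer to AI for 11 and nearer to AU for 9. Choosing genes for a difference between AI and AU favours a young median between theirs, and no share over all genes was counted. By the nearer median, young rats were not on one side for these genes.

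The genes of calcium regulation that the study connected with impairment were near 0 in the average. The study chose them for their CA1 difference, in part on these same libraries, so their values in CA1, and the contrast of CA1 with the other subfields, are descriptions and not independent evidence. In the rat averages 0 of 10 had an unadjusted p under 0.05 and their median was -0.05, beside 0.00 over all genes. In CA1 alone 6 of 10 did (2.61% of all genes), and 9 of 10 were below 0 (46.1% of all genes). In CA3 alone 0 of 10 did (1.86% of all genes), and in DG 0 of 10 (2.84%). No gene passed an adjusted p of 0.05 in any subfield with limma. In the same CA1 libraries some marker lists of other tissue or of vessels had members at an unadjusted p under 0.05 as well. There were 4 of 10 thalamic (list median 0.59), 3 of 8 ependymal (-0.33) and 2 of 10 subicular and neocortical markers (0.25). Of vessel markers there were 2 of 7 endothelial (0.21) and 1 of 10 mural and vascular fibroblast markers (0.25). The anterior pituitary list, which includes Prl, had 1 of 4 (0.66). Choroid plexus (9 tested), striatal (10) and blood (4) markers had 0. The 8 DG granule markers tested had a median of 0.45 in CA1 libraries, with 0 below 0 (46.1% of all genes) and 1 at an unadjusted p under 0.05. In DG libraries their median was -0.36. The part of all these markers in the values of the calcium genes was not tested.

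Neto1, an auxiliary subunit of glutamate receptors, gave -0.43 ± 0.14 in CA1, 0.34 ± 0.17 in CA3 and 0.30 ± 0.16 in DG, and 0.07 ± 0.07 in the average. Prkca, protein kinase C alpha, gave -0.35 ± 0.11, 0.18 ± 0.13 and 0.18 ± 0.11 in the same order and 0.00 ± 0.06 on average, with an interval from -0.12 to 0.13. Adra1d, an alpha-1 adrenergic receptor, gave -0.47 ± 0.13 in CA1 and 0.06 and 0.14 elsewhere, and -0.09 ± 0.09 on average. Atp2b4, a plasma membrane calcium pump, gave 0.94 ± 0.28 in CA1, 0.15 ± 0.34 in CA3 and -0.06 ± 0.26 in DG. None of the values of the 10 genes in CA3 or DG had an unadjusted p under 0.05.

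The averaged difference of Atp2b4, 0.34 ± 0.21 (p = 0.112), had the widest interval of the 10, from -0.09 to 0.77. AI rats held it between 833 and 1440 normalized counts, whereas AU rats ranged from 209 to 1398. Itpr1, the inositol trisphosphate receptor that releases stored calcium, was the only one of the 10 whose 3 subfield values were all below 0 (-0.20, -0.02 and -0.12), and it averaged -0.11 ± 0.08. Hpca, the calcium sensor hippocalcin, averaged -0.11 ± 0.13, Dclk2 -0.06 ± 0.07, the channel subunit Cacnb2 -0.05 ± 0.08, Prickle2 -0.05 ± 0.07 and the scaffold Homer3 0.05 ± 0.13.

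The 9 excitability genes of the study, chosen in the same way, also had 0 members at an unadjusted p under 0.05 in the average, with a median of -0.01. In CA1 alone there were 3 (2.61% of all genes), in CA3 0 (1.86%) and in DG 1 (2.84%). Hcn4, a hyperpolarization-activated channel, gave 1.29 ± 0.46 in CA1, -0.76 ± 0.51 in CA3 and 0.29 ± 0.33 in DG. It averaged 0.27 ± 0.27, and 0.44 (p = 0.0249) without the rats listed first. Grm2, an inhibitory metabotropic glutamate receptor, gave 0.66 ± 0.27 in CA1 and -0.63 ± 0.30 in DG and averaged 0.15 ± 0.26. Gabra5, the GABA receptor subunit of tonic inhibition, gave -0.42 ± 0.20 in CA1, 0.28 ± 0.17 in DG and -0.03 ± 0.12 on average. Kcnk1, a two-pore potassium channel, gave 0.30 ± 0.15 in CA1 and -0.03 ± 0.10 on average. Ksr1 (-0.14), Kcnab2 (-0.05), Mpp3 (-0.01), Nptxr (-0.01) and Akap13 (0.01) completed the list.

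**Figure D4:**
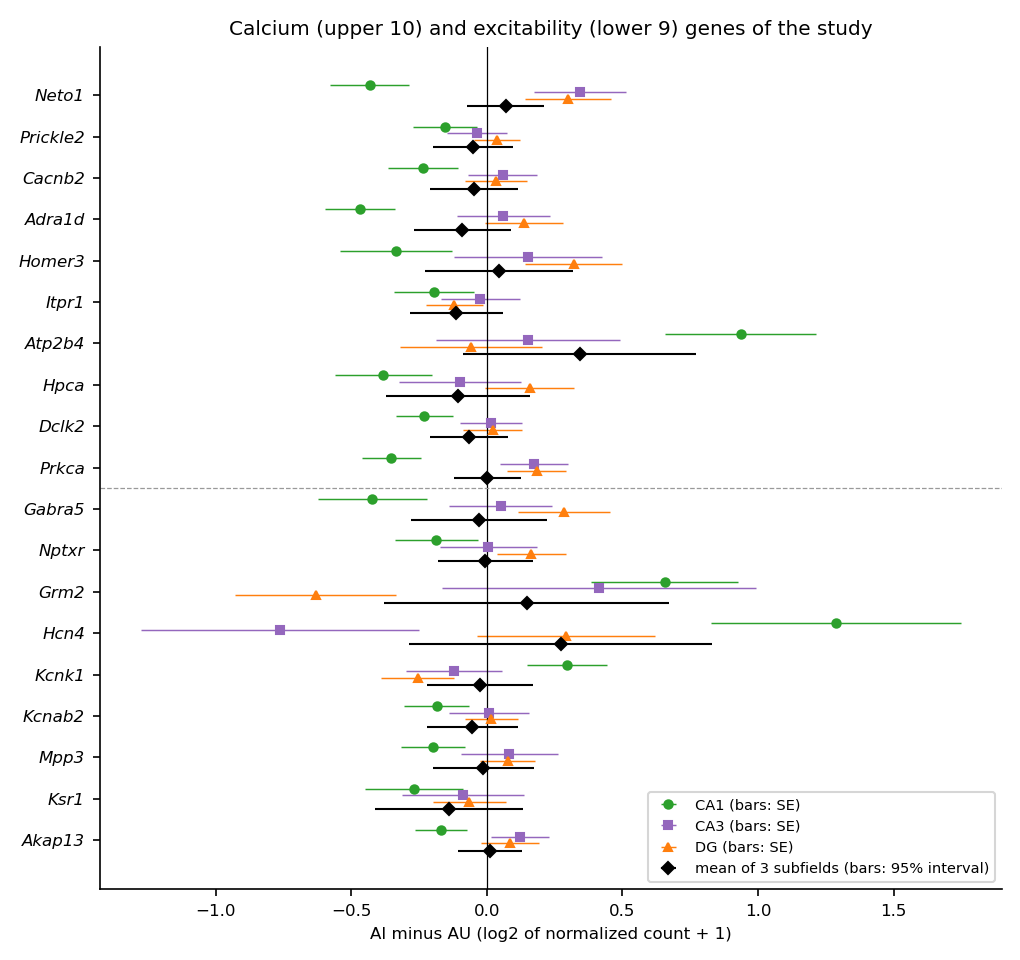
AI minus AU differences on the log2(normalized count + 1) scale (horizontal axis) for 10 calcium and 9 excitability genes of the study. Coloured symbols are CA1 (circles), CA3 (squares) and DG (triangles) with SE, and black diamonds are the averages over the 3 subfields with 95% intervals. All 19 black intervals include 0, while CA1 values lie to the right of CA3 and DG for Atp2b4, Grm2, Hcn4 and Kcnk1 and to the left for the other genes.

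The wider gene lists that the study gave for each subfield were counted in the same way. Of 103 genes of its CA1 list that were tested here, 55 had an unadjusted p under 0.05 in CA1, 7 in the average, 1 in CA3 and 11 in DG. Over all genes the shares were 2.61% in CA1, 1.55% in the average, 1.86% in CA3 and 2.84% in DG. Of 27 genes of its DG list, 14 did in DG, 4 in the average, 2 in CA1 and 1 in CA3. Of 7 genes of its CA3 list, 3 did in CA3, 1 in the average, 1 in CA1 and 1 in DG. The study selected these genes in part on these libraries, so the count in a list's own subfield is fixed by that choice. The average contains that subfield, so the counts in the average are raised by the choice too and are not independent evidence. Each of the 3 counts in the average includes Prl.

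Tests of whether the AI against AU effect differed between subfields, made on differences within rats, gave 0 genes at an adjusted p of 0.05 in limma. At an unadjusted p under 0.05 there were 642 genes (3.92%) for CA1 against the mean of CA3 and DG, 448 (2.74%) for CA3 and 595 (3.63%) for DG against the mean of the respective others. The test of a different effect in the 2 identifier series gave 0 genes at the adjusted threshold and 318 (1.94%) at an unadjusted p under 0.05. Pomc ranked first in it, with 1.87 ± 0.40 in R1-R2 and -0.37 ± 0.28 in R9 (unadjusted p = 0.000191, adjusted p = 0.999).

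Prl, the pituitary hormone prolactin, passed the filter through its AI libraries alone, with a mean of 18.7 normalized counts in AI and 0.896 in AU libraries. It had to differ to be among the tested genes, so its values are a description. Its averaged difference was 1.43 ± 0.63, with 1.26 ± 0.67 in CA1, 1.69 ± 0.76 in CA3 and 1.35 ± 0.64 in DG. It ranged from 0 to 81.5 (median 1.06) in AI and from 0 to 3.44 (median 0.244) in AU, was listed at 0 in all 30 young libraries, and exceeded the highest AU rat in 5 AI rats. The difference was 2.74 ± 0.85 in R1-R2 and -0.11 ± 0.64 in R9. High values came from few animals. Of the 9 libraries above 15 normalized counts all were AI, they came from 4 rats, and 8 of them were of the R1-R2 series.

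Growth hormone (Gh1), another pituitary hormone, was below the expression filter and overlapped with Prl in part. The library with the highest Prl, CA3 of AI rat R2233, held 315 of Prl and 93.1 of Gh1, and CA1 of AI rat R2231 held 55.8 and 41.6. Of 8 libraries with Gh1 above 5, 7 also had Prl above 15, and of the 9 libraries with Prl above 15, 7 had Gh1 above 5. The other two were CA1 of AI rats R2233, with 26.5 of Prl and 0 of Gh1, and R9781, with 17.7 and 3.78. Among the 9 anterior pituitary markers, 4 including Prl passed the filter. Pomc, the precursor of corticotropin, differed by 0.85 ± 0.33 (p = 0.0168), and Lhb and Chga had an unadjusted p above 0.05. Unlike Prl, Pomc was above 0 in 30 of 30 young libraries, beside 35 of 36 in AI and 33 of 36 in AU. Its highest library had 39.7 in AI, 43.0 in AU and 34.8 in young rats. The highest library of Lhb (42.1 in AI and 13.5 in AU) and of Chga (2694 and 2595) was in AI. Below the filter, the highest library had 93.1 of Gh1 in AI and 5.14 in AU, and 49.5 and 4.69 of Fshb. It was higher in AU for Tshb (11.3 in AI and 28.0 in AU) and Cga (5.29 and 12.2). Pou1f1, the transcription factor of prolactin and growth hormone cells, also peaked in AU, at 10.5 against 1.72 in AI. Their part in the Prl difference was not tested.

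Pathway lists drawn up for this tissue gave few members at an unadjusted p under 0.05, and no member passed the adjusted test. Of 19 activity-regulated genes tested, 1 had an unadjusted p under 0.05 (1.55% of all genes). It was Arc, an immediate early gene of synaptic plasticity, which measured 673 to 1134 (median 802) in AI and 757 to 1396 (median 1021) in AU. The difference was -0.26 ± 0.11 (p = 0.0219), with -0.20 in CA1, -0.31 in CA3 and -0.27 in DG, and 4 AI rats lay below every AU rat. Without the rats listed first it was -0.17 (p = 0.129). The orphan receptors Nr4a1 (-0.19 ± 0.10) and Nr4a3 (0.12 ± 0.06) had opposite signs, and the median of the list was 0.01.

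Of 15 complement and cytokine genes tested, 14 had larger values in AI (51.0% of all genes), with a median of 0.10 beside 0.00 over all genes, and 1 had an unadjusted p under 0.05 (1.55% of all genes). This was C3ar1, the receptor of the complement fragment C3a, at 18.4 to 33.8 (median 22.2) in AI and 6.77 to 26.03 (median 18.4) in AU. It differed by 0.44 ± 0.18 (p = 0.0195), and 11 of 12 AI rats lay above the AU median. The complement protease gene C1s differed by 0.42 ± 0.22 (p = 0.0756). Of 26 genes of interferon response and antigen presentation, 14 were above 0 and their median was 0.01. Mx2, an interferon-induced GTPase, differed by -0.20 ± 0.09 (p = 0.0457) and Usp18 by -0.51 ± 0.30 (p = 0.0985).

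The remaining 9 pathway lists held 0 genes at an unadjusted p under 0.05 in the average. The medians of glutamate receptors (22 tested), GABA receptors (13), synaptic vesicle and scaffold genes (24), calcium handling genes (47), oxidative phosphorylation (24), cholesterol synthesis (18), circadian clock (14) and glucocorticoid response (14) lay between -0.05 and 0.03. Among their first ranked members were Grin3a (-0.25 ± 0.24), Gabrb1 (0.14 ± 0.12), Syn2 (0.12 ± 0.06), Camk2d (0.27 ± 0.14), Sc5d (0.09 ± 0.07), Dbp (-0.12 ± 0.07) and Sult1a1 (-0.15 ± 0.11). In the list of 13 neurogenesis and proliferation genes the median was 0.11 and the replication gene Mcm2 ranked first (0.22 ± 0.11, p = 0.0649). Ncald, a neuronal calcium sensor, averaged 0.11 ± 0.06, with 0.39 in CA1, 0.00 in CA3 and -0.06 in DG.

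**Figure D5:**
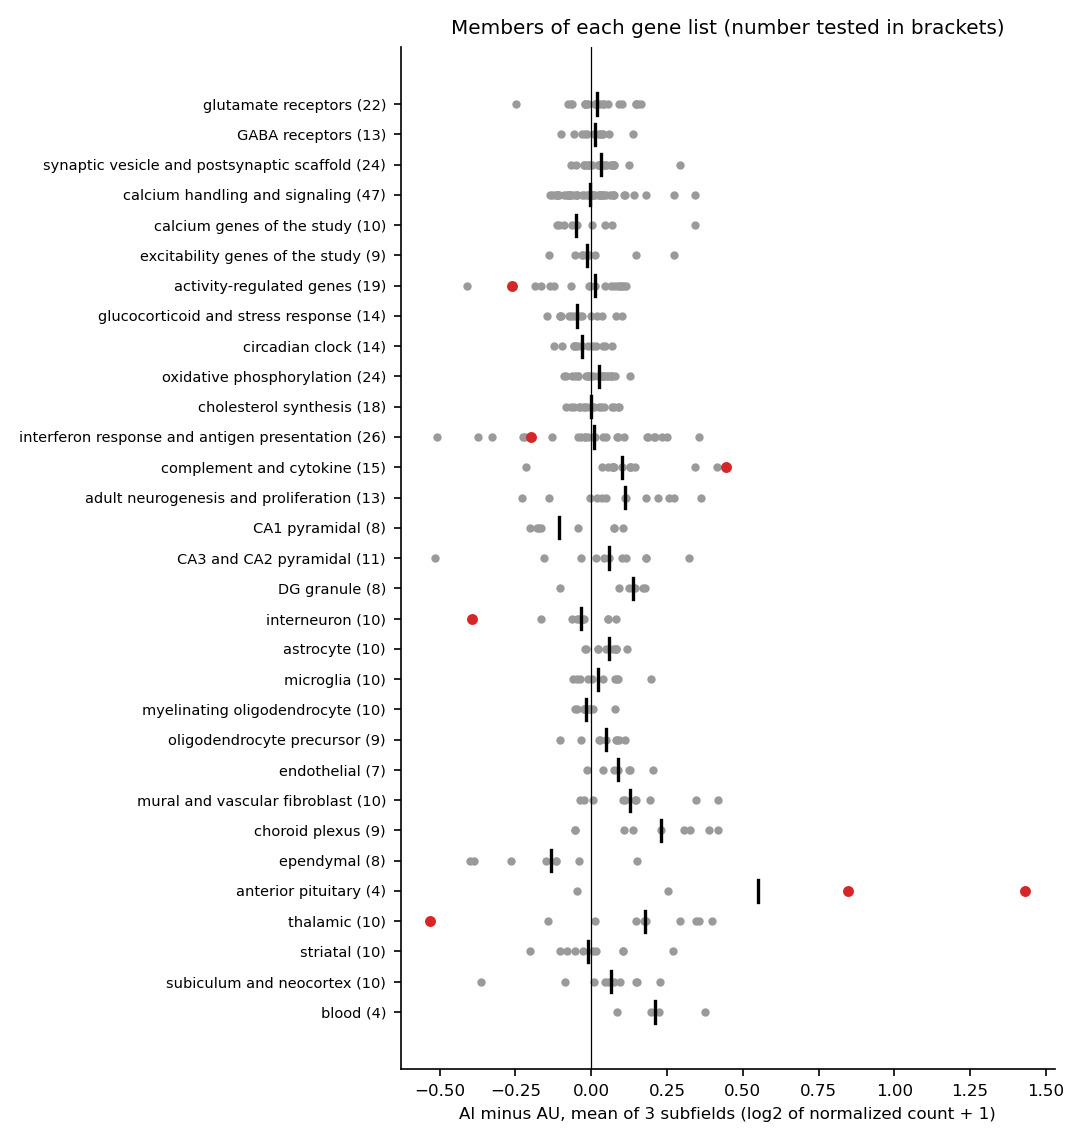
Members of the 31 gene lists (rows, number tested in brackets) by their AI minus AU difference in the average of 3 subfields (horizontal axis, log2 of normalized count + 1). Grey points are genes, red points are genes with an unadjusted p under 0.05, and black bars are list medians. Medians lie between -0.13 and 0.23 except for the 4 anterior pituitary genes, Prl among them, at 0.55.

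Markers of hippocampal cell types differed little between the classes in the average. Markers of CA1 pyramidal cells (8 tested, median -0.11, Nov -0.17 ± 0.13), CA3 and CA2 pyramidal cells (11, median 0.06, Nnat 0.32 ± 0.21) and DG granule cells (8, median 0.14, Pdzd2 0.14 ± 0.10) had 0 members at an unadjusted p under 0.05. The DG granule markers had medians of 0.45 in CA1, 0.27 in CA3 and -0.36 in DG libraries. In the same order 1, 0 and 0 of 8 had an unadjusted p under 0.05 (2.61%, 1.86% and 2.84% of all genes). Each library's own subfield markers scored highest of the 3 in 57 of 72 libraries, and in 2 of the 11 CA3 libraries of aged R9 rats. With the libraries that met this standard alone, 0 genes passed for AI against AU.

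Glial and vascular markers were close to 0, with medians of 0.06 for astrocytes (Slc1a2 0.12 ± 0.08), -0.02 for myelinating oligodendrocytes (Opalin 0.08 ± 0.12), 0.05 for their precursors (Olig2 0.08 ± 0.07) and 0.09 for endothelium (Esam 0.13 ± 0.14), and no member at an unadjusted p under 0.05. The first ranked mural marker, the potassium channel gene Kcnj8, differed by 0.42 ± 0.27. Of 10 interneuron markers 1 had an unadjusted p under 0.05 (1.55% of all genes). Npy, neuropeptide Y, measured 15.3 to 60.6 (median 35.6) in AI and 25.1 to 74.5 (median 46.5) in AU, a difference of -0.39 ± 0.18 (p = 0.0414) that was -0.76 ± 0.36 in CA3 and -0.08 ± 0.32 in CA1. It was -0.79 ± 0.25 in R9 and -0.05 ± 0.23 in R1-R2.

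Markers of tissue next to the hippocampus varied between rats more than between classes. The summed level of 9 choroid plexus markers ranged from 48.6 to 60480 in AI and from 32.8 to 49324 in AU, with a median difference of 0.23 (Slc4a5 0.39 ± 0.39). Ependymal markers had a median of -0.13, and their first ranked member Tmem212 averaged -0.40 ± 0.26 from -1.72 in CA1, -0.42 in CA3 and 0.94 in DG. Of 10 thalamic markers 1 had an unadjusted p under 0.05 (1.55% of all genes). Tnnt1, a troponin gene of thalamic neurons, measured 23.1 to 157 (median 61.9) in AI and 42.5 to 165 (median 91.2) in AU, and its difference of -0.53 ± 0.21 (p = 0.016) came from -1.52 ± 0.40 in CA1, -0.64 ± 0.32 in CA3 and 0.57 ± 0.30 in DG. The thalamic genes Prkcd (0.36 ± 0.17) and Lef1 (0.40 ± 0.22) had the opposite sign, and the list median was 0.18. In CA1 alone the list median was 0.59 and 2 of 10 thalamic markers were below 0 (46.1% of all genes). There 4 of the 10 had an unadjusted p under 0.05 (2.61% of all genes), of which 1 was below 0. Striatal (Rgs9 0.27 ± 0.23), subicular and neocortical (Rorb 0.15 ± 0.11) and blood (Slc4a1 0.38 ± 0.39) markers had no member at an unadjusted p under 0.05.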

How the data were processed

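Poly-A mRNA of CA1, CA3 and DG from 34 rats was sequenced on the Ion Proton by the authors, aligned to rn5 with TopHat2 and Bowtie2 in Partek Flow and summarized per gene with featureCounts 1.4.4. The authors deposited 1 table of normalized counts (a signal, counts divided by a DESeq2 size factor) for 26689 genes. Each library's values divided by their smallest step were whole within a relative tolerance of 1e-06 for 100% of values, and these recovered reads served the count methods. Genes were named as deposited, and for 453 of 4719 genes without a symbol the paper's supplement supplied one. No sequence or coordinate is given, since the reference in use is of another build.

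For each aged rat, log2(value + 1) was averaged over its 3 subfields. AI and AU were compared with limma 3.58.1 in R 4.3.3 (eBayes with trend), with the identifier series as covariate, for genes averaging 5 or more over the 72 libraries, Benjamini-Hochberg adjustment over all of them and a threshold of 0.05. Subfields were fitted alone and as differences within rats. Values are AI minus AU ± SE, and differences of log2(value + 1) understate changes of scarce genes. The rat number joins the 3 libraries of 1 animal, and deviations from group means correlated by 0.0846 (CA1 with CA3), 0.0516 (CA1 with DG) and 0.0249 (CA3 with DG) on average over 24 rats. AI and AU share no animal. Recovered reads per aged library had a median of 9573090.5. Alternatives were edgeR 4.0.16 and DESeq2 1.42.0 on summed reads, other pseudocounts, filters and scalings, each series, each pair of subfields and each rat left out. Scripts were tested on simulated data. Single values were tested by permutation with 100000 resamples (scipy 1.17.1).

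The text names the 10 genes with the smallest p in each direction (clone names and bare identifiers were passed over), the study's calcium and excitability genes with Prl, up to 4 first ranked members of each other list, and list members below the filter where stated. The comparison, genes and lists were chosen with earlier results of these data known. The authors' fold changes and p-values were not used. The result for 1 gene is not reported here.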

Additional observations from a re-analysis of the deposited data

Results flagged for a closer look

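The 20 highest ranked genes and Prl were searched for a rat far from the others of its group in 105 groups of 5 to 10 rats (the 10 young rats, and AI and AU rats within each identifier series), on rat means of log2 values. A gap as large relative to the range as the 95% limit for that number of rats occurs by chance in about 1 in 20 groups, and 6 of these 105 groups showed one.

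In the R9 series, AI rat R9781 had 676 normalized counts of Pragmin, below the 877 to 894 of the other AI rats of that series, and 7.95 of Prl, above their 0 to 0.312. This rat is one of the 4 aged rats listed first in the table. In the R1-R2 series, AI rat R2231 had 18.4 of LOC100911725 against 7.66 to 11.0 in the others, and AU rat R2184 had 2.40 of Prl against 0 to 0.248. Among young rats, rat R1922 had 32.4 of Spi1 against 42.0 to 54.3, and rat R2221 had 1363 of Pragmin against 750 to 971. No cause of these values was tested.

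No difference of the AI against AU effect between subfields or between series passed an adjusted p of 0.05.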

How the results depend on the processing

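Under 19 other settings and with each of the 24 rats left out in turn, the number of genes at an adjusted p under 0.05 in the averaged comparison stayed at 0. With a rat left out, the number at an unadjusted p under 0.05 was 221 to 434 (434 without AI rat R1931, one of those listed first). Over 18 of the other settings it was 194 to 546. The 194 were of 14231 genes with a mean of at least 20, and the 546 of 24055 genes without a filter on low values. The exception was weighting the rats by quality, which gave 1425 of 16372 genes and a smallest adjusted p of 0.157. Weights ran from 0.0802 to 3.19, with the 2 lowest on rats listed first. With these weights the share of genes was above the 0.05 of evenly spread p-values, whereas in the main comparison it was below. This setting, the covariate for rats listed first, leaving these out, and the libraries with their own markers highest (440 genes) were chosen after seeing the data. With the rat as a block over 72 libraries, the pairing of subfields within animals, 0 genes passed and 208 had an unadjusted p under 0.05, and the block changed no call. In CA1 alone DESeq2 called 1 gene, Ipcef1 (named after its value was seen), where limma called 0. The other subfield, difference and series counts stayed at 0.

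Of 75 named genes, 41 kept 1 sign under every setting, and none passed under any. Values of opposite sign in the R9 series alone were Plagl1 -0.036, Cacnb2 0.069, Adra1d 0.024, Dclk2 0.028, Nptxr 0.0029, Kcnk1 0.047, Kcnab2 0.095, Mpp3 0.055, Ksr1 0.0075, Prl -0.11, Mx2 0.027, C1s -0.025, Cx3cr1 -0.047, Opalin -0.0995, Olig2 -0.015, Slc4a5 -0.23, Pomc -0.37 and Rorb -0.025, and in R1-R2 alone Homer3 -0.078, Prkca -0.053, Akap13 -0.053 and Grin3a 0.13. The median of the anterior pituitary list, which includes Prl, was -0.21 in R9 and 1.30 in R1-R2. Without CA1 they were Prickle2 0.00037, Cacnb2 0.047, Adra1d 0.0997, Hpca 0.0295, Dclk2 0.019, Gabra5 0.17, Nptxr 0.085, Grm2 -0.11, Hcn4 -0.24, Kcnab2 0.013, Mpp3 0.0798, Ncald -0.031, Pdzd2 -0.034, Tmem212 0.26 and Rgs9 -0.0296. Without CA3 they were Neto1 -0.067, Homer3 -0.0074, Prkca -0.084, Kcnk1 0.021 and Akap13 -0.042, and without DG Neto1 -0.044, Homer3 -0.091, Prkca -0.088, Kcnk1 0.088, Akap13 -0.023 and Olig2 -3.5e-05. On summed reads edgeR gave Homer3 -0.034, Gabra5 0.00601 and Rgs9 -0.17, and DESeq2 gave Homer3 -0.034, Gabra5 0.0069 and Rgs9 -0.17. With quality weights they were Adra1d 0.012, Dclk2 0.0059, Nptxr 0.0052, Kcnab2 0.033, Mpp3 0.072, Sc5d -0.025 and Slc4a1 -0.0014. Without the rats listed first they were Hpca 0.026, Nptxr 0.033, Grm2 -0.023, Kcnab2 0.011 and Mpp3 0.034, with libraries of highest own markers Prkca -0.053 and Akap13 -0.0088, and without the covariate Nptxr 0.023 and Mpp3 9.96e-06. Leaving out 1 rat gave both signs for Akap13 (-0.011 to 0.036), Cacnb2 (-0.076 to 0.0066), Gabra5 (-0.096 to 0.036), Grm2 (-0.11 to 0.27), Homer3 (-0.023 to 0.12), Kcnk1 (-0.079 to 0.0031), Mpp3 (-0.038 to 0.058), Nptxr (-0.0300 to 0.0487), Prickle2 (-0.077 to 0.0048) and Prkca (-0.0231 to 0.0303). The cause was not tested.

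Intervals were widest for scarce genes: with a mean of 5 to 20 normalized counts the 95% interval had a median margin of 0.53 on the log2 scale. Intervals cover the spread between rats. The identifier series is known from names and the rats listed first from table order. Of the tested genes, 146 averaged 5 or more normalized counts in 1 class and under 5 in the other. Of the genes named for their rank or list, this held for Prl. Genes named outside the ranks and lists, Fat2 among them, were not checked for it. Fat2 averaged 5.95 normalized counts over the aged libraries, close to the filter.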
